A study of Rattus norvegicus with 15 samples.

Results

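The 9 genes described here are regulators of oxidative and contractile metabolism in skeletal muscle: the coactivators Ppargc1a and Ppargc1b, the corepressor Nrip1, the nuclear receptor Esrra, the transcription factors Mef2a, Mef2c and Mef2d, and the AMP-activated protein kinase (AMPK) subunits Prkag3 and Prkaa2. Every probe set whose only gene symbol was that of a member was taken, which gave 16 probe sets for the 9 genes, out of 31042 probe sets and 14217 genes on the array. RNA of the gastrocnemius, a mixed-fiber calf muscle, was measured in male Wistar rats bought at 3.5 weeks of age and fed purified diets after 3 days on 15% casein. CN rats (n = 4) ate a diet of 15% casein and LP rats (n = 4) a calorie-matched diet of 8% casein for 4 weeks. CN-R (n = 3) and LP-R (n = 4) came from the same feeding arms and were sampled on day 84. All rats were fasted for 16 h before sampling. The array titles number biological replicates, and each array is read here as 1 rat, although the methods speak of 4 chosen animals with 1 for each group. The methods state that LP-R rats went back to the control diet after the restriction, whereas the sample labels keep them on their earlier diet, so LP-R is read here as the late group that began on low protein. CN-R replicate 4 is named a control in its title and description and a restricted rat in its treatment field, and was kept in CN-R. The rats put on arrays had been chosen for body weights near the mean of their group, which limits how far they represent all animals of a group.

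PGC-1α and PGC-1β, the products of Ppargc1a and Ppargc1b, are coactivators that dock on nuclear receptors such as the estrogen-related receptor ERRα (Esrra) and on MEF2 factors, and that raise transcription of genes of mitochondria, fatty acid oxidation and, for PGC-1α, slow-fiber contractile proteins. Nrip1 encodes RIP140, a corepressor that binds many of the same receptors and lowers the same oxidative programme in mouse muscle. MEF2 proteins bind the regulatory DNA of muscle genes, among them Ppargc1a itself, and answer to calcium signals through calcineurin, calmodulin-dependent kinases and class IIa histone deacetylases. AMPK senses low cellular energy, with Prkaa2 as the α2 catalytic subunit and Prkag3 as the γ3 regulatory subunit of fast glycolytic fibers, and it acts on PGC-1α. In muscle, Ppargc1a is induced by exercise and fasting, in part through CREB bound to a cAMP response element of its promoter.

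Each probe set has a log2 signal on each array. The signals ran from 5.24 to 14.07 on the CN and LP arrays and from 5.38 to 14.16 on the CN-R and LP-R arrays, and since the 2 sets of arrays were summarized apart, LP was set against CN alone and LP-R against CN-R alone. Where the probes of a probe set do not move together, the summary returns nearly the same value on every array. Those with an SD above 0.01 are called varying here, 3974 of the 31042 on the CN and LP arrays and 3100 on the CN-R and LP-R arrays. The main test was rank products, which ranks the difference between every LP and every CN array and estimates the share of false positives (pfp) from permuted arrays. The threshold for a call was a pfp of 0.05, and 1 called probe set sufficed to call its gene. Rank products takes all probe sets to vary alike, so that probe sets with a wide spread are called more easily, and limma and a two-sided exact permutation test over the arrays are given beside it. The direction of its calls moved with the number of arrays in each group. Over all probe sets, leaving out any CN array gave 424 to 635 calls higher and 133 to 271 lower in LP, and leaving out any LP array gave 104 to 195 higher and 391 to 626 lower, for a cause that was not tested. Calls lost on omission of 1 array are to be read beside these counts.

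Among the members, 9 of 16 probe sets (7 genes) varied across CN and LP and 10 of 16 (7 genes) across CN-R and LP-R. In LP against CN, rank products called 6 of 16 member probe sets lower and 0 higher. The called genes were Ppargc1a with 3 probe sets, Nrip1, Mef2c and Prkag3, which are 4 of 9 genes. Over all probe sets, 492 (1.58%) were called lower and 522 (1.68%) higher, or 12.4% and 13.1% of the varying ones, and over all genes 343 (2.41%) were called lower and 366 (2.57%) higher. The median difference of the 9 varying member probe sets was -0.14 on the log2 scale, against 0.02 over all varying probe sets. By limma, 0 probe sets of any gene passed an adjusted p of 0.05 (Benjamini-Hochberg), with 2342 (7.54%) at an unadjusted p under 0.05, and 1 member probe set was among those, the nearly constant one of Esrra. No varying member had LP and CN values that did not overlap, against 7.9% of all varying probe sets.

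In LP-R against CN-R, rank products called 1 of 16 member probe sets higher, that of Nrip1, and 0 lower. Over all probe sets, 107 (0.345%) were called higher and 53 (0.171%) lower, or 3.45% and 1.71% of the varying ones, and over all genes 60 (0.422%) and 39 (0.274%). limma again called 0 probe sets at an adjusted p up to 0.05, with 1566 (5.04%) at an unadjusted p under 0.05 and 0 of these among the members. No varying member had groups that did not overlap, against 3.84% of all varying probe sets. The late groups hold 3 arrays against 4, and rank products over disjoint pairs of arrays called 11 probe sets higher and 30 lower, with 0 members among the former.

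**Figure D1:**
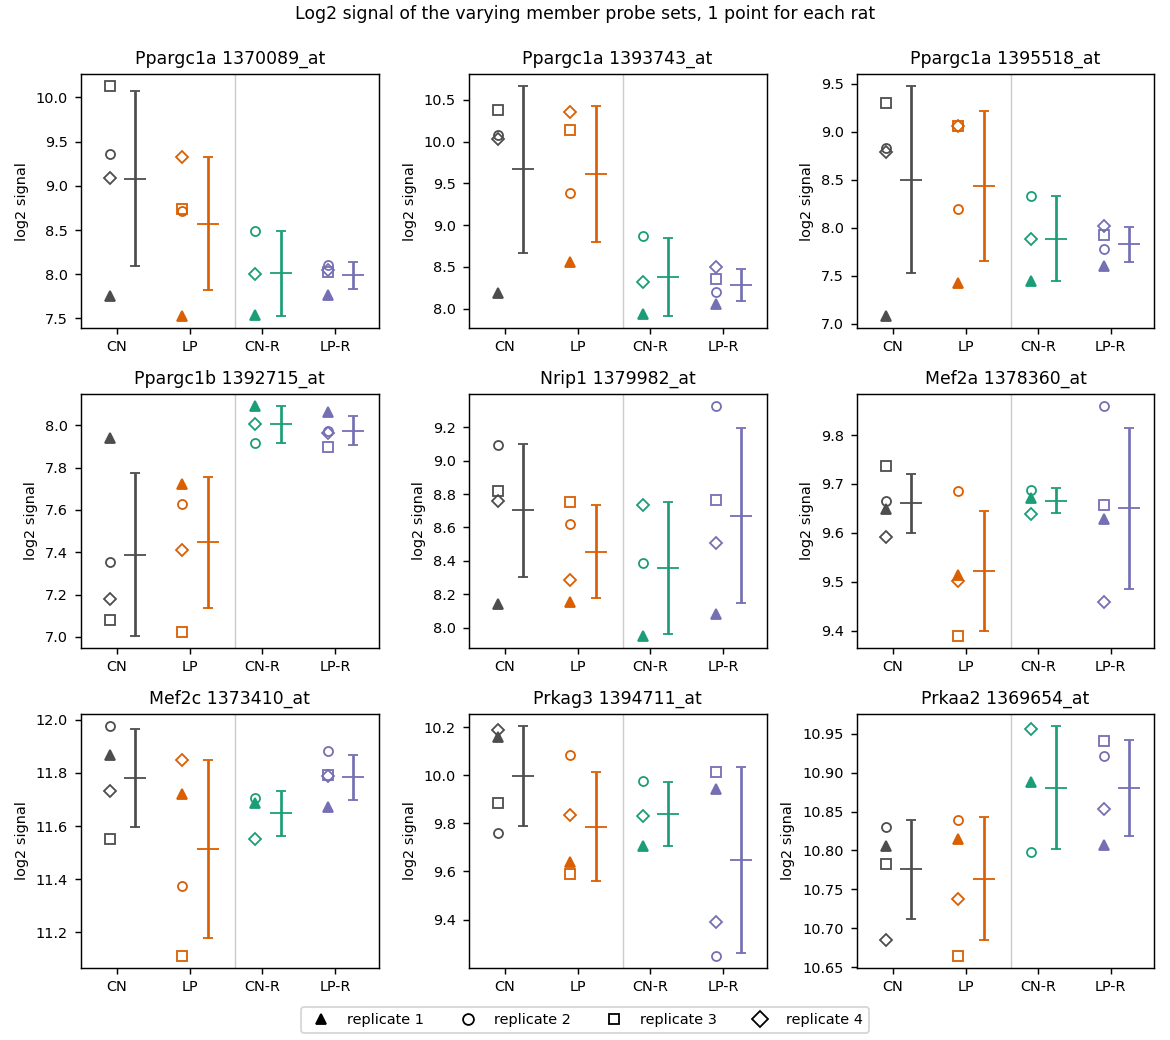
Log2 signal (vertical axes) of the 9 member probe sets that varied in both sets of arrays, with 1 point for each rat, grouped on the horizontal axes as CN, LP, CN-R and LP-R. Symbols give the replicate number, with replicate 1 as a filled triangle, and the bars beside the points show the mean and SD of each group. LP overlaps CN and LP-R overlaps CN-R in every panel, and replicate 1 is lowest in all 4 groups for Ppargc1a and Nrip1 and highest for Ppargc1b.

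Ppargc1a had 3 probe sets (1370089_at, 1393743_at and 1395518_at). Its promoter is shown because it holds a cAMP response element, the palindrome TGACGTCA through which CREB acts on this gene. The window covers the 250 bases before the start of the gene in RefSeq, build GRCr8, chr14:63634058-63634307 on the plus strand, read 5′ to 3′ with the element in capitals, 181 to 174 bases before the start.
Ppargc1a: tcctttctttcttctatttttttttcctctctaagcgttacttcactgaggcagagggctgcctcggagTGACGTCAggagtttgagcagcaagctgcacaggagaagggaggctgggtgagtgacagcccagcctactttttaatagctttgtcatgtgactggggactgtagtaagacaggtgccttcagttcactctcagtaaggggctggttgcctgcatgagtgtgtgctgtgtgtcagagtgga
The same 8 letters, searched on both strands, occur in 531 of 33469 such windows (1.59%) and in 1 of the 8 member windows available. The match describes these letters and is not a measured binding site.

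The log2 signal of probe set 1370089_at was 7.75, 9.36, 10.13 and 9.08 in CN replicates 1 to 4 and 7.52, 8.71, 8.74 and 9.32 in LP replicates 1 to 4. Replicate 1 was by a wide margin the lowest rat of each group, and the groups overlapped over most of their range. The means were 9.08 ± 0.99 in CN and 8.57 ± 0.75 in LP (SD, n = 4 each), a difference of -0.51 (SE 0.62), or 1.42-fold lower. Rank products called it lower at a pfp of 0.00042, while the exact permutation test gave p = 0.43 and limma an adjusted p of 0.89. Leaving out each array in turn gave differences of -0.95 to -0.16, and the call was lost without CN replicate 3, the highest rat, where the difference was -0.16.

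For probe set 1393743_at the signals were 8.19, 10.08, 10.38 and 10.02 in CN and 8.56, 9.39, 10.14 and 10.36 in LP. CN replicate 1 stood far below the other 3 CN rats, at -1.97 against their mean. LP replicate 1 was likewise the lowest LP rat, at -1.40 against the mean of the others. The difference was -0.06 (SE 0.64, exact permutation p = 0.97). Rank products called this probe set lower at a pfp of 0.037, with a pfp of 0.075 in the opposite direction, so that the ranks alone placed it near the threshold both ways. Probe set 1395518_at gave 7.08, 8.83, 9.30 and 8.79 in CN and 7.43, 8.19, 9.05 and 9.06 in LP, with a difference of -0.07 (SE 0.63, exact permutation p = 0.91) and a pfp of 0.034. Both differences turned positive without LP replicate 1 (0.29 and 0.27) or LP replicate 2 (0.02 and 0.02), with no call. Both were called higher without CN replicate 2 (0.08 and 0.04), CN replicate 3 (0.18 and 0.20) or CN replicate 4 (0.06 and 0.03). The call lower thus rested on which arrays were included. Among the varying probe sets alone, rank products called 1370089_at only among the members.

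The 3 probe sets followed each other across rats. Over the 8 CN and LP arrays Pearson's r was 0.996 between 1393743_at and 1395518_at and 0.906 and 0.908 between 1370089_at and these, as a description. The mean difference between LP and CN was larger with 1370089_at than with the other probe sets. Within an array, 1393743_at exceeded 1370089_at by 0.25 to 0.94 in CN and by 0.67 to 1.40 in LP, ranges that overlap. The gap was 0.45 larger in LP, which did not pass the exact permutation test (p = 0.086), and for 1395518_at the corresponding gap was 0.44 larger (p = 0.057, exact permutation test). Between 1393743_at and 1395518_at the gap differed by -0.01 between LP and CN (p = 0.86, exact permutation test). Which exons these probe sets match is not given in the sources used here.

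The spread of Ppargc1a within groups was among the widest of the array. The SD within CN and LP was 0.88, 0.91 and 0.89 for the 3 probe sets, at percentiles 99.7, 99.8 and 99.7 of the 3974 varying probe sets, whose median was 0.09. The SD was 0.32, 0.33 and 0.31 within CN-R and LP-R, at percentiles 94.8, 95.2 and 94.3.

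**Figure D2:**
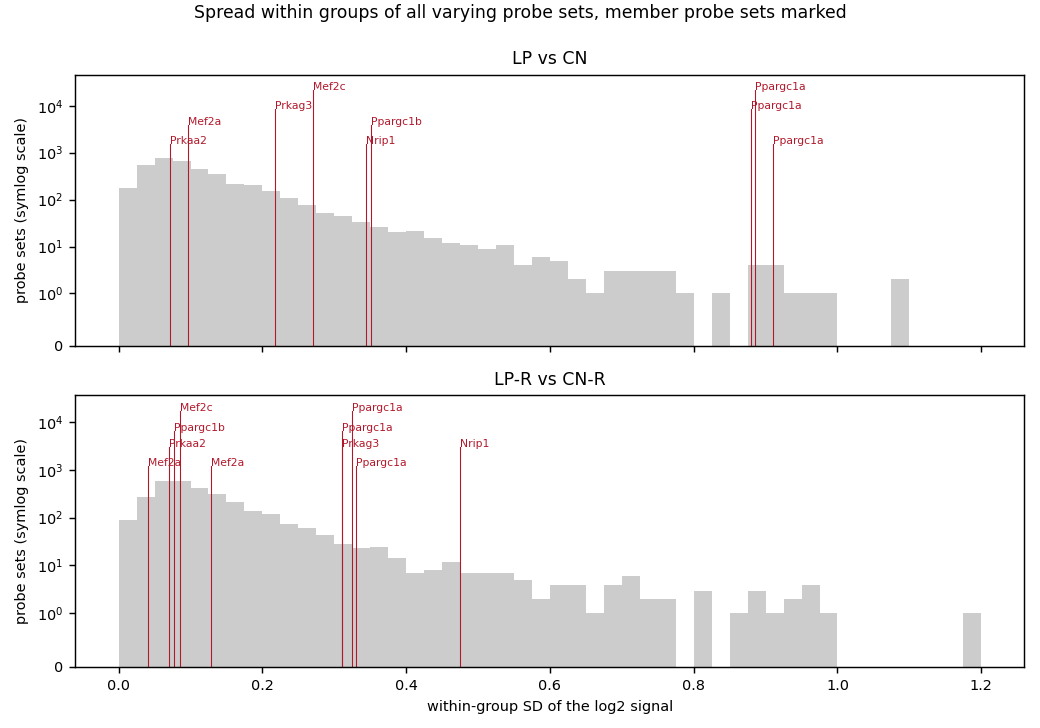
Number of varying probe sets (vertical axes, symmetric log scale) by the SD of the log2 signal within groups (horizontal axis), for CN and LP above and CN-R and LP-R below, in bins of 0.025. Lines mark the member probe sets by gene: the 3 of Ppargc1a lie at 0.88 to 0.91 above and at 0.31 to 0.33 below.

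On the late arrays, 1370089_at gave 7.53, 8.49 and 8.01 in CN-R replicates 1, 2 and 4 and 7.77, 8.11, 8.02 and 8.05 in LP-R replicates 1 to 4. The LP-R rats lay inside the range of CN-R, and the difference was -0.02 (SE 0.29, exact permutation p = 1). Probe set 1393743_at gave 7.94, 8.87 and 8.32 in CN-R and 8.06, 8.20, 8.36 and 8.50 in LP-R, with a difference of -0.10 (SE 0.29, exact permutation p = 0.74). Probe set 1395518_at gave 7.45, 8.33 and 7.88 in CN-R and 7.60, 7.78, 7.92 and 8.02 in LP-R, with a difference of -0.06 (SE 0.27, exact permutation p = 0.89). None was called. Without CN-R replicate 2, the highest rat, rank products called 1370089_at and 1395518_at higher, at differences of 0.22 and 0.16.

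Ppargc1b, the second coactivator, was measured by 1 probe set (1392715_at). Its log2 signal was 7.94, 7.36, 7.08 and 7.18 in CN and 7.72, 7.63, 7.02 and 7.41 in LP. Replicate 1 was the highest rat of each group, the reverse of Ppargc1a. The difference was 0.06 (SE 0.25, exact permutation p = 0.83), with no call, although rank products called it higher without CN replicate 1 (0.24). The late signals were 8.09, 7.92 and 8.01 in CN-R and 8.06, 7.97, 7.90 and 7.96 in LP-R, and the difference was -0.03 (SE 0.06, exact permutation p = 0.63). The SD within groups was 0.35 early and 0.08 late.

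Ppargc1a and Ppargc1b ran in opposite directions across rats. Over the 8 CN and LP arrays Pearson's r between 1393743_at and 1392715_at was -0.89 (exact permutation p = 0.0023, adjusted over the 6 relations tested 0.014) and Spearman's rho was -0.79 (p = 0.028, adjusted 0.074, exact permutation test). Without CN replicate 1 and LP replicate 1, the rats farthest from the median of Ppargc1a, r was -0.67 (exact permutation p = 0.13), so that the relation no longer passed without these rats. Over the 7 late arrays r was -0.80 (exact permutation p = 0.028, adjusted 0.085) and rho -0.86 (p = 0.024, adjusted 0.074, exact permutation test), and r was -0.66 without CN-R replicates 1 and 2 (exact permutation p = 0.21). With each group's mean removed r between Ppargc1a and Ppargc1b was -0.87 late and -0.89 early. After adjustment over the 6 relations, only this early relation passed 0.05 by Pearson's r, and none passed by Spearman's rho. Between Ppargc1a and Nrip1 r was 0.70 early (exact permutation p = 0.058, adjusted 0.087) and 0.20 late (exact permutation p = 0.67). The early r was -0.05 without CN replicate 1 and LP replicate 1 (exact permutation p = 0.92), so that it rested on these rats. Between Ppargc1b and Nrip1 r was -0.72 early (exact permutation p = 0.046, adjusted 0.087) and -0.56 late (exact permutation p = 0.19). It was -0.62 early without CN replicate 1 and LP replicate 3 (exact permutation p = 0.20). Late, it changed sign to 0.33 without CN-R replicate 1 and LP-R replicate 1 (exact permutation p = 0.62).

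**Figure D3:**
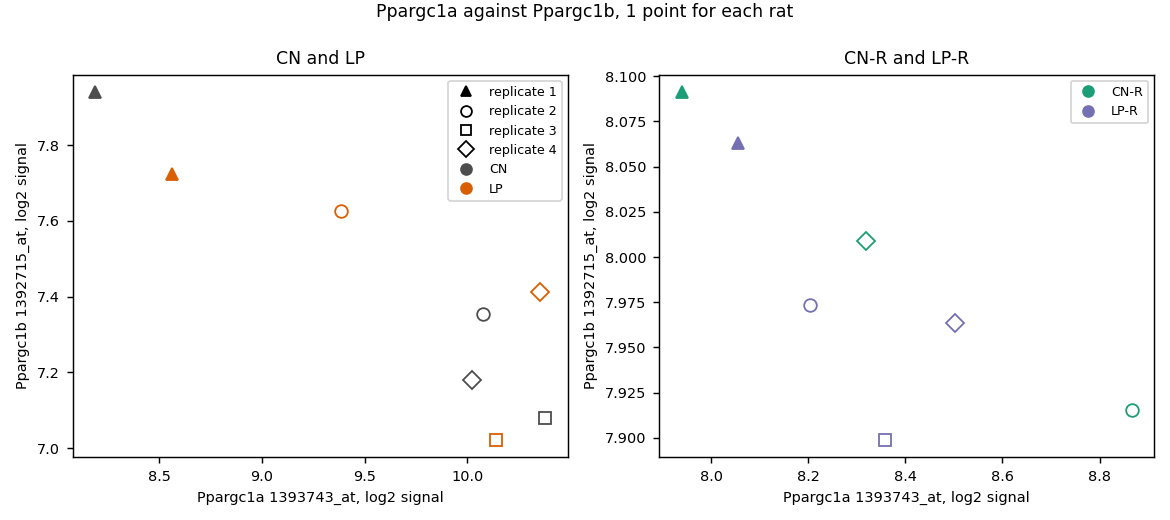
Log2 signal of Ppargc1b (vertical axes, probe set 1392715_at) against that of Ppargc1a (horizontal axes, probe set 1393743_at), with 1 point for each rat, for CN and LP on the left and CN-R and LP-R on the right. Colors give the group and symbols the replicate number, with replicate 1 as a filled triangle at the upper left of each panel, and r is -0.89 on the left and -0.80 on the right.

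Nrip1, the corepressor, was measured by 1 probe set (1379982_at) and was the only member called in both comparisons, in opposite directions. Its log2 signal was 8.14, 9.09, 8.82 and 8.76 in CN and 8.16, 8.62, 8.75 and 8.29 in LP. Replicate 1 was the lowest rat of each group at nearly the same level, and the other LP rats lay below the other CN rats. The means were 8.70 ± 0.40 in CN and 8.45 ± 0.28 in LP (SD, n = 4 each), a difference of -0.25 (SE 0.24), or 1.19-fold lower, with a pfp of 0.012, an exact permutation p of 0.34 and a limma adjusted p of 0.85. Leaving out CN replicate 2 (-0.12), 3 (-0.21) or 4 (-0.23) ended the call.

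The late signals of Nrip1 were 7.95, 8.39 and 8.74 in CN-R and 8.08, 9.33, 8.77 and 8.51 in LP-R. LP-R replicate 2 lay well above the highest CN-R rat and LP-R replicate 3 just above it, and the other LP-R rats lay inside the CN-R range. The means were 8.36 ± 0.39 (SD, n = 3) and 8.67 ± 0.52 (SD, n = 4), a difference of 0.31 (SE 0.35), or 1.24-fold higher, with a pfp of 0.005, an exact permutation p of 0.40 and a limma adjusted p of 0.999. The call was lost without LP-R replicate 2 (0.10), LP-R replicate 3 (0.28) or CN-R replicate 1 (0.11), and likewise over disjoint pairs of arrays (pfp 0.061) and over same-number pairs (replicate block, difference 0.28). The late difference exceeded the early one by 0.56, which did not pass the exact permutation test of the difference (p = 0.20).

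Esrra, which encodes the receptor ERRα, was measured by 1 probe set (1374741_at) that was nearly constant, at 8.89 on all CN and LP arrays and 9.15 on all CN-R and LP-R arrays. At a constant value the probe set cannot show whether the transcript differed between the groups. The same held for both probe sets of Mef2d (1369851_at and 1398427_at), at 8.18 and 7.79 on the early arrays and 7.43 and 7.80 on the late arrays.

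Mef2a, a MEF2 factor of adult muscle, had 4 probe sets, of which 1383093_at and 1393290_at were constant on both sets of arrays, at 10.45 and 8.64 early and 10.22 and 8.54 late. Its promoter window is shown because it alone among the 8 member windows holds an A-rich form of the MEF2 site, TAAAAATAG, on either strand. It covers the 250 bases before the start of the gene in RefSeq, build GRCr8, chr1:130392163-130392412 on the minus strand, read 5′ to 3′ of the gene, with the site in capitals, 39 to 31 bases before the start.
Mef2a: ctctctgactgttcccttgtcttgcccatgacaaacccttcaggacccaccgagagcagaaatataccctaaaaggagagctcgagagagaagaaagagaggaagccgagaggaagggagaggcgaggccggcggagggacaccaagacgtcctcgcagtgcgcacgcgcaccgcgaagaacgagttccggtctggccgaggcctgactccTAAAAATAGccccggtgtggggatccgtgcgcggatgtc
These 9 letters occur in 155 of 33469 windows (0.463%). The element of ERRα, TCAAGGTCA, occurs in 130 windows (0.388%) and in 0 of the 8 member windows, which says only that these letters are not in the windows searched.

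The varying probe set of Mef2a (1378360_at) gave 9.65, 9.67, 9.74 and 9.59 in CN and 9.51, 9.69, 9.39 and 9.50 in LP. Of the LP rats 3 lay below every CN rat, and LP replicate 2 lay above all CN rats but 1. The difference was -0.14 (SE 0.07, exact permutation p = 0.11), with a pfp of 0.072 and no call, and a call lower without LP replicate 2 (-0.19). Late, it gave 9.67, 9.69 and 9.64 in CN-R and 9.63, 9.86, 9.66 and 9.46 in LP-R, a difference of -0.02 (SE 0.08, exact permutation p = 0.71). Probe set 1392472_at was constant at 10.18 early, and late it ran from 9.97 to 9.99 in CN-R and from 9.93 to 10.05 in LP-R, a difference of 0.01 (SE 0.03, exact permutation p = 0.69).

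Mef2c, the MEF2 factor tied to fiber integrity and slow-fiber genes in mouse muscle, had a constant probe set (1372332_at, 11.59 early and 11.63 late) and a varying one (1373410_at). The latter gave 11.87, 11.98, 11.55 and 11.73 in CN and 11.72, 11.37, 11.11 and 11.85 in LP. LP replicates 2 and 3 lay below every CN rat, and LP replicates 1 and 4 lay inside the CN range. The means were 11.78 ± 0.18 in CN and 11.51 ± 0.33 in LP (SD, n = 4 each), a difference of -0.27 (SE 0.19), or 1.20-fold lower, with a pfp of 0.0096, an exact permutation p of 0.20 and a limma adjusted p of 0.79. The call was lost without LP replicate 3 (-0.13), CN replicate 1 (-0.24) or CN replicate 2 (-0.20).

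Mef2c 1373410_at gave late signals of 11.69, 11.71 and 11.55 in CN-R and 11.67, 11.88, 11.79 and 11.79 in LP-R, so that 3 of 4 LP-R rats lay above every CN-R rat. The difference was 0.13 (SE 0.07, exact permutation p = 0.11), with a pfp of 0.052 and no call, and a call higher without LP-R replicate 1 (0.17), CN-R replicate 1 (0.15) or CN-R replicate 2 (0.16). The late difference exceeded the early one by 0.40, with an exact permutation p of 0.062, the smallest of the 9 member probe sets varying in both sets, and a limma adjusted p of 0.81. This p was under 0.05 without LP replicate 4 (difference 0.51, p = 0.023), CN replicate 3 (0.48, p = 0.042), LP-R replicate 1 (0.44, p = 0.044) or CN-R replicate 2 (0.43, p = 0.046), each by the exact permutation test. It was above 0.05 without any of the other 11 arrays, and the difference was smallest without LP replicate 3 (0.27, exact permutation p = 0.14).

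Prkag3, the γ3 subunit of AMPK, was measured by 1 probe set (1394711_at). Its log2 signal was 10.16, 9.76, 9.89 and 10.19 in CN and 9.64, 10.08, 9.59 and 9.84 in LP. LP replicates 1 and 3 lay below every CN rat, and LP replicates 2 and 4 lay inside the CN range. The means were 9.998 ± 0.21 in CN and 9.79 ± 0.23 in LP (SD, n = 4 each), a difference of -0.21 (SE 0.15), or 1.16-fold lower, with a pfp of 0.020, an exact permutation p of 0.23 and a limma adjusted p of 0.79. The call was lost without LP replicate 3 (-0.15), CN replicate 1 (-0.16), CN replicate 3 (-0.25) or CN replicate 4 (-0.15).

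Prkag3 late gave 9.71, 9.98 and 9.83 in CN-R and 9.94, 9.25, 10.01 and 9.39 in LP-R. The LP-R rats split into a pair below every CN-R rat and a pair near the top of the CN-R range. The difference was -0.19 (SE 0.21, exact permutation p = 0.43), with no call, and a call lower without LP-R replicate 3 (-0.31) and over same-number pairs (replicate block, difference -0.31).

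Prkaa2, the α2 catalytic subunit (1369654_at), gave 10.81, 10.83, 10.78 and 10.69 in CN and 10.81, 10.84, 10.66 and 10.74 in LP, a difference of -0.01 (SE 0.05, exact permutation p = 0.83). Late, it gave 10.89, 10.80 and 10.96 in CN-R and 10.81, 10.92, 10.94 and 10.85 in LP-R, a difference of -0.00037 (SE 0.06, exact permutation p = 1). It had the narrowest spread of the varying members early, with an SD within groups of 0.07.

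**Figure D4:**
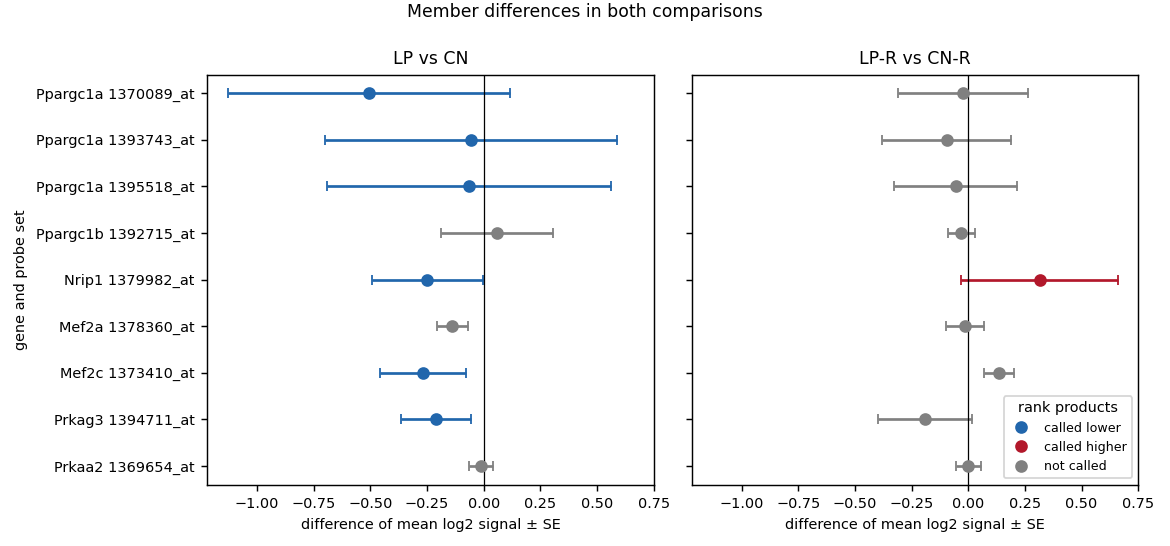
Difference of mean log2 signal (horizontal axes, with SE) of the 9 member probe sets varying in both sets of arrays (vertical axis), for LP minus CN on the left and LP-R minus CN-R on the right. Blue marks a call lower and red a call higher by rank products. The 6 blue points on the left run from -0.51 to -0.06, and the red point on the right is Nrip1 at 0.31.

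Replicate 1 set the extreme of the PGC-1 and Nrip1 signals in every group. Of the 9 member probe sets varying in both sets of arrays, the 3 of Ppargc1a and that of Nrip1 were lowest in replicate 1 of CN, LP, CN-R and LP-R alike, and that of Ppargc1b was highest. Over all 2073 probe sets varying in both sets, 80 (3.86%) had replicate 1 at the same extreme in all 4 groups, 40 of them lowest (1.93%) and 40 highest (1.93%). Replicate 1 minus the mean of the other rats of its group was -1.97 to -0.30 for Ppargc1a 1393743_at, -0.79 to -0.40 for Nrip1 and 0.12 to 0.74 for Ppargc1b. The labels do not say what the replicate numbers share, and what separated these rats from the others was not tested. Without replicate 1 of CN and LP together, rank products called 2 member genes lower, Ppargc1a and Nrip1. Without replicate 1 of CN-R and LP-R together it called 2 genes higher, Nrip1 and Mef2c.

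The lists of genes around the members were described by counts. Whether a gene varied, and its direction, was read from its brightest probe set, that with the highest mean signal. A call in any of its probe sets counted as a call of the gene. The same held for the markers below. Over all genes, rank products called 2.57% higher and 2.41% lower in LP, and 0.422% higher and 0.274% lower in LP-R. Of the nuclear receptors and factors that PGC-1 proteins coactivate, 17 of 17 were measured, 4 varied across CN and LP, and 1 was called lower and 0 higher. The called gene was Foxo1, a forkhead factor of fasting and atrophy that PGC-1α coactivates in liver, at -0.27 (SE 0.19, exact permutation p = 0.23). The call was lost without LP replicate 1 (-0.13), CN replicate 3 (-0.20) or CN replicate 4 (-0.20). In the late groups 3 of 17 varied and 0 were called, and the largest differences were those of Esrrg, which encodes ERRγ, at -0.22 (SE 0.07, exact permutation p = 0.057), and of the forkhead factor Foxo3 at -0.05 (SE 0.09, exact permutation p = 0.60). Every LP-R rat lay below every CN-R rat for Esrrg, and late groups did not overlap for 3.84% of all varying probe sets. Of the coactivators, corepressors and modifiers, 17 of 20 were measured and 2 were called lower in LP, each in a probe set other than its brightest, the acetyltransferase gene Crebbp at -0.30 (SE 0.14, exact permutation p = 0.086) and the corepressor gene Ncor1 at -0.19 (SE 0.12, exact permutation p = 0.17). That of Crebbp was lost without CN replicate 1 (-0.30) or CN replicate 3 (-0.24), and that of Ncor1 without any of 6 of the 8 arrays (differences of -0.21 to -0.09). In LP-R 0 were called, with Fbxw7, a ubiquitin ligase subunit that targets PGC-1α, at -0.07 (SE 0.05) and the Mediator subunit Med1 at -0.05 (SE 0.10).

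Of the genes driven by PGC-1 and ERR in muscle, 27 of 29 were measured, 13 varied across CN and LP, and 10 of these 13 had a higher mean in LP, with a median difference of 0.05 against 0.02 over all varying probe sets. Perm1, a muscle gene induced by PGC-1 and ERR, was called higher at 0.19 (SE 0.18, exact permutation p = 0.31). Pdk4, the kinase that blocks pyruvate dehydrogenase in fasting, was called lower at -0.23 (SE 0.10, exact permutation p = 0.086) in a probe set other than its brightest. The brightest was nearly constant, so Pdk4 was not counted among the 13. The call of Perm1 was lost without LP replicate 2 (0.25), LP replicate 3 (0.13), LP replicate 4 (0.10) or CN replicate 1 (0.09). The call of Pdk4 was lost without CN replicate 1 (-0.24) or CN replicate 3 (-0.18). In the late groups 9 varied and 0 were called, 7 of the 9 had a lower mean in LP-R (median -0.03, against -0.02 over all varying probe sets), and the largest differences were those of Ldhb, the lactate dehydrogenase subunit of oxidative fibers, at -0.22 (SE 0.12, exact permutation p = 0.14), and the lipid droplet gene Cidea at -0.07 (SE 0.06).

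Of the regulators of MEF2 and the myogenic factors, 23 of 25 were measured. In LP 1 was called, the calmodulin-dependent kinase gene Camk2b, lower at -0.26 (SE 0.10, exact permutation p = 0.057) in a probe set other than its brightest, and the call was lost without CN replicate 1 (-0.26) or CN replicate 3 (-0.24). In LP-R 1 was called, Myod1, a myogenic factor of fast fibers, lower at -0.41 (SE 0.18, exact permutation p = 0.11), and lost without LP-R replicate 4 (-0.32) or any CN-R rat (-0.48 to -0.28). Of the 10 MEF2 target genes, all measured, 5 varied in each comparison, and 4 of the 5 had a lower mean in LP (median -0.09) and 4 of 5 in LP-R (median -0.28), against 0.02 and -0.02 over all varying probe sets. Tnnc1 and Tnni1, lower in both, are slow-fiber genes. Jun was called higher in LP by all 3 of its probe sets, at 0.19 to 0.22 (exact permutation p of 0.26 to 0.29), and Nr4a1, a nuclear receptor induced by calcium signals, was called lower in LP-R at -0.45 (SE 0.41, exact permutation p = 0.26). The call of Nr4a1 was lost without LP-R replicate 4 (-0.29) or any CN-R rat (-0.77 to -0.15), and each Jun probe set lost its call without LP replicate 1 (0.09 to 0.12), without LP replicate 2 (0.16 to 0.20) and, in 2 of 3, without further arrays. Jun in 2 of these probe sets, Nr4a1 and Foxo1 were among the probe sets with replicate 1 at the same extreme in all 4 groups, highest for Jun and Nr4a1 and lowest for Foxo1.

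Of the other AMPK subunits, upstream kinases and substrates, 20 of 21 were measured. In LP 2 were called higher and 1 lower, against 2.57% and 2.41% of all genes. Acaca, which encodes acetyl-CoA carboxylase 1 of fatty acid synthesis, gave 7.29, 7.26, 7.41 and 7.35 in CN and 7.75, 7.64, 7.45 and 7.58 in LP. Every LP rat lay above every CN rat, with a difference of 0.28 (SE 0.07, exact permutation p = 0.029, the smallest that 70 splits allow). LP and CN values did not overlap for 7.9% of all varying probe sets. Prkab2, the β2 subunit of AMPK in muscle, gave 7.35, 7.26, 7.42 and 7.26 in CN and 7.15, 7.12, 7.23 and 7.23 in LP, all below CN, with a difference of -0.14 (SE 0.05, exact permutation p = 0.029). Tbc1d1, a Rab regulator of glucose transport, was called higher at 0.15 (SE 0.13, exact permutation p = 0.29). Acaca kept its call without any of the 8 arrays (0.23 to 0.33), Prkab2 lost it without any CN rat (-0.16 to -0.11), and Tbc1d1 lost it without 6 of the 8 arrays (0.08 to 0.20).

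In LP-R 0 of the AMPK genes were called. Acaca had the largest difference and gave 7.73, 7.89 and 7.79 in CN-R and 7.47, 7.66, 7.70 and 7.46 in LP-R, so that every LP-R rat lay below every CN-R rat, at -0.23 (SE 0.08, exact permutation p = 0.057). Late groups did not overlap for 3.84% of all varying probe sets. The late difference of Acaca was 0.51 below the early one, with an exact permutation p of 0.00082 and a limma adjusted p of 0.39. Since Acaca was one of 14 called probe sets for which this was computed, and was chosen for its early difference, this p is not independent of that choice. Prkab2 followed at -0.16 (SE 0.12, exact permutation p = 0.29).

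**Figure D5:**
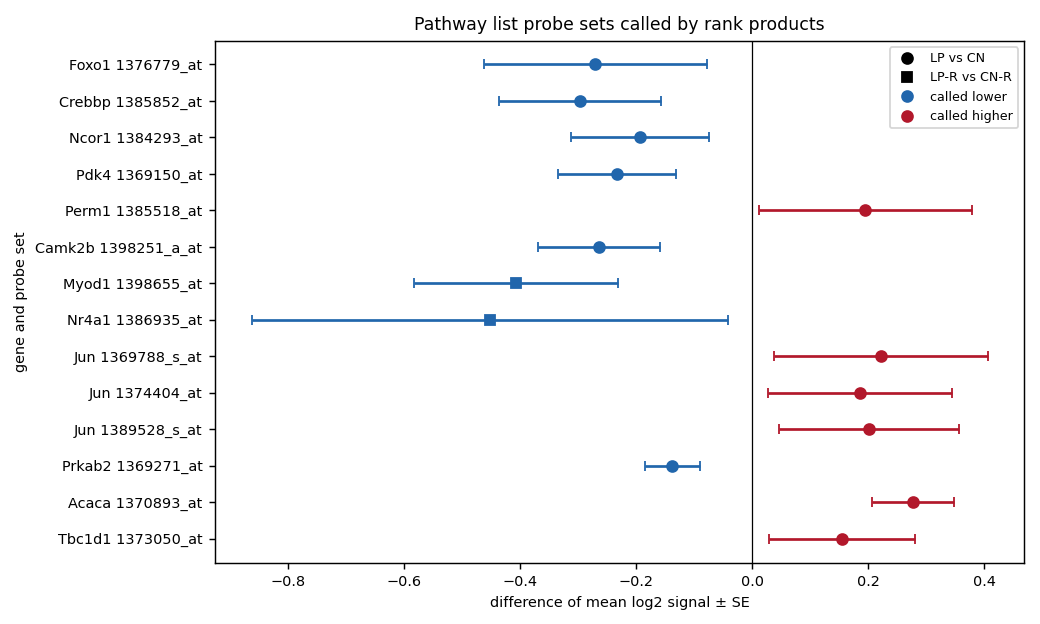
Difference of mean log2 signal (horizontal axis, with SE) of the 14 probe sets from the pathway lists that rank products called (vertical axis). Circles are LP minus CN and squares LP-R minus CN-R, blue is lower and red higher. Acaca at 0.28 and Prkab2 at -0.14 are the circles whose groups did not overlap, as in 7.9% of all varying probe sets.

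The profiles most like those of 4 members over the 8 CN and LP arrays were found by Pearson's r over varying probe sets, as a description with no test, and 8 points taken from 3974 candidates will include high values. The closest to Ppargc1a 1393743_at was Asb5, an ankyrin repeat gene of muscle, with r = 0.98 early and 0.15 over the 7 late arrays, followed by Adam15 (0.95) and Lrrfip1 (0.95), both constant late. The closest to Nrip1 were Fgfr3 (0.91), Nherf2 (0.91, and 0.74 late) and Ephx2 (0.90, and -0.47 late). Those of Mef2c were Smim27 (0.96), Stau2 (0.93) and Mllt3 (0.91), at -0.54, -0.59 and -0.42 late. Those of Prkag3 were Psme4 (0.94), Atp1b2 (0.92) and Mfap1a (0.90), at 0.38, 0.09 and -0.03 late.

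Markers of fibers and of other cells moved beside the members, and in whole muscle fewer cells of a type and less RNA per cell cannot be told apart. Skeletal muscle markers were high in every group, with Ryr1, the one that varied, between 11.67 and 12.17. The 6 slow-fiber genes, all varying, had a lower mean in LP than in CN and in LP-R than in CN-R. Their mean signal ran from 12.31 to 12.56 in CN, 12.16 to 12.46 in LP, 12.25 to 12.49 in CN-R and 12.07 to 12.44 in LP-R. LP replicate 1 alone, at 12.16, lay below every CN rat, and LP replicates 2 to 4, at 12.41 to 12.46, lay inside the CN range. LP-R replicates 1, 3 and 4 lay below every CN-R rat, and LP-R replicate 2 lay inside the CN-R range. Of the 6 genes 1, Myh7, was called lower in LP-R at -0.39 (SE 0.22, exact permutation p = 0.14). Of the endothelial markers 4 of 5 were measured and 3 varied across CN and LP, with a mean signal of 8.12 to 8.29 in CN and 8.38 to 8.50 in LP, where Kdr was called higher at 0.40 (SE 0.08, exact permutation p = 0.029) and Tie1 at 0.14 (SE 0.09, exact permutation p = 0.14). Fibroblast markers ran from 11.16 to 11.57 in CN and 11.14 to 11.29 in LP. Of these, Col1a1 (-0.19, SE 0.16, exact permutation p = 0.31) and Postn (-0.42, SE 0.23, exact permutation p = 0.086) were called lower. The other 2 varying ones, Dcn (0.04) and Lum (0.04), were not called. Adipocyte markers ran from 8.08 to 8.53 in CN and 8.08 to 8.87 in LP, with Adipoq called higher (0.38, SE 0.38, exact permutation p = 0.40). Of the fast-fiber genes 5 of 5 were measured and 1 was called, Myh1, higher in LP-R in a probe set other than the brightest (0.15 in each of 2), while the 2 that varied in their brightest probe set, Pvalb (-0.09) and Actn3 (-0.03), had a lower mean in LP-R. Of smooth muscle and pericyte markers 2 of 4 varied, of Schwann cell markers 1 of 2 measured and of erythrocyte markers 1 of 2 measured, with 0 called. In LP-R against CN-R, 0 of the fibroblast, adipocyte, smooth muscle, Schwann cell and erythrocyte markers were called, and all that varied had a lower mean in LP-R. They were 4 of 5 fibroblast markers (median -0.13), 2 smooth muscle markers (median -0.15), Adipoq (-0.20), Pmp22 of Schwann cells (-0.13) and Hbb of erythrocytes (-0.36, SE 0.27, exact permutation p = 0.29). Fibroblast markers ran from 9.67 to 9.93 in CN-R and 9.52 to 9.80 in LP-R, and Hbb from 11.43 to 12.14 and from 11.05 to 11.62. Macrophage markers (5 of 5 measured) and satellite cell markers (1 of 3 measured) were nearly constant in their brightest probe sets, which cannot show whether these cells differed. The part of these cells in the members' differences was not tested.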

How the data were processed

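RNA of rat gastrocnemius was measured on Affymetrix GeneChip rat expression arrays, 15 in all. The authors summarized the probes in R with FARMS (factor analysis for robust microarray summarization) and deposited log2 signals, 1 for each probe set and array. The version of FARMS is not given in the sources used here. The scale was checked on the values and no further normalization was applied. Of 31042 probe sets, after 57 controls were left out, 20826 carry 1 symbol in the platform annotation, 436 several and 9780 none.

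Rank products were computed over all pairs of arrays in Python 3.11.15 (numpy 2.4.6, pandas 2.3.3, scipy 1.17.1) with 100 permutations within arrays and seed 1, and limma 3.58.1 was run in R 4.3.3 with its default prior. Both were run on simulated arrays with known changes and independent noise, which hold no pattern shared by replicate number. The exact permutation tests are two-sided over 70 splits (LP, CN) or 35 (LP-R, CN-R), and their p were not adjusted over genes. The number of arrays limits the precision. The members, lists and tests were chosen with earlier results of these data known. All members were named, with the called genes of each list (at most 6 for each comparison) or, where none was called, the 2 of largest difference among varying probe sets, and the 3 genes nearest by r to Ppargc1a, Nrip1, Mef2c and Prkag3. Promoter windows came from RefSeq (GRCr8), where 8 of 9 members were found. Motifs were searched on both strands. Alternatives were quantile normalization, median centring, leaving out the dimmest 25% or the nearly constant probe sets, a pfp up to 0.01, limma with other priors, a replicate block, the brightest probe set for each gene, leaving out each array and another group for CN-R replicate 4. Disjoint pairs of arrays, leaving out replicate 1 of both groups and a fit of all 4 groups were added after the values were seen.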

Additional observations from a re-analysis of the deposited data

Results flagged for a closer look

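Of 28 groups of 4 rats tested among the varying member probe sets for a rat far from the others, 1 was found: CN replicate 1 at 8.19 for Ppargc1a 1393743_at, 0.837 of the group's range below the nearest rat. Chance finds about 1 in 20 such groups. Outside the members, the late difference lay below the early one by exact permutation test for Acaca (-0.51, p = 0.00082) and for 2 of the 3 Jun probe sets, 1389528_s_at (-0.50, p = 0.038) and 1374404_at (-0.50, p = 0.044). These are 3 of 14 pathway probe sets for which the difference was computed because rank products had called them in one comparison, which favors a difference between the comparisons, so their unadjusted p are not independent of that choice, and limma gave adjusted p of 0.39, 0.79 and 0.79.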

How the results depend on the processing

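Quantile normalization and median centring left the member calls of rank products as they were, 4 genes lower in LP and 1 higher in LP-R. In LP against CN, leaving out the dimmest 25% gave 304 probe sets called higher. Among varying probe sets alone 1 member gene was called lower, with 11 probe sets higher and 20 lower, and a pfp up to 0.01 gave 2 member genes lower, 101 probe sets higher and 164 lower. Without replicate 1 of both groups 2 member genes were called lower, with 112 probe sets higher and 91 lower. limma with either prior called 0. In LP-R against CN-R, leaving out the dimmest 25% gave 70 probe sets called higher, the varying probe sets alone 0 member genes, 5 probe sets higher and 2 lower, and a pfp up to 0.01 gave 42 and 4. With CN-R replicate 4 moved to the LP-R group the counts were 332 higher and 15 lower, disjoint pairs 0 member genes, 11 higher and 30 lower, and leaving out replicate 1 of both groups 2 member genes higher and 6 probe sets lower. limma with either prior called 0, and 1 among the varying probe sets alone. The causes were not tested, beyond the fewer probe sets or arrays that some settings hold.

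The main tests did not take the replicate numbers as pairs. Over the varying probe sets, each rat's deviations from the mean of its group were correlated, CN rats with LP rats and CN-R rats with LP-R rats. This correlation of deviations ran from -0.03 to 0.55 early and from 0.04 to 0.22 late for same-numbered rats. For rats of different number it ran from -0.54 to 0.33 early and from -0.32 to 0.28 late. The same number gave the best match for CN replicates 1, 3 and 4 and for CN-R replicate 4. Whether same-numbered rats share a condition was not tested. With the replicate block, limma called 0 in both comparisons. Rank products over same-number pairs (replicate block) called 4 member genes lower in LP, and in LP-R 0 higher and 1 lower (Prkag3), with 47 probe sets higher and 138 lower.

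Leaving out each array in turn gave 0 to 1 member genes higher and 1 to 5 lower in LP, with 104 to 635 probe sets higher and 133 to 626 lower. In LP-R it gave 0 to 3 member genes higher and 0 to 1 lower, 30 to 148 probe sets higher and 2 to 133 lower, and 0 to 1 limma calls. Differences that changed sign ran, for LP minus CN, from -0.55 to 0.29 (Ppargc1a 1393743_at), -0.54 to 0.27 (1395518_at), -0.045 to 0.24 (Ppargc1b) and -0.042 to 0.021 (Prkaa2). For LP-R minus CN-R they ran from -0.26 to 0.22 (Ppargc1a 1370089_at), -0.31 to 0.15 (1393743_at), -0.28 to 0.16 (1395518_at), -0.075 to 0.013 (Ppargc1b), -0.085 to 0.049 (Mef2a 1378360_at), -0.0024 to 0.037 (1392472_at) and -0.042 to 0.037 (Prkaa2). That of Prkaa2 was also 0.011 after quantile normalization, 6.4e-05 after median centring, 0.053 with CN-R replicate 4 as LP-R and 0.028 without replicate 1 of both groups. The late minus early difference ran from -0.39 to 0.45 (Ppargc1a 1393743_at), -0.33 to 0.48 (1395518_at), -0.27 to 0.015 (Ppargc1b), -0.10 to 0.15 (Prkag3) and -0.030 to 0.049 (Prkaa2). Over all settings, limma and the stricter pfp included, 32 differences of single member probe sets changed sign. Of the others, 53 lost a call, 8 gained one and 268 stayed as they were.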

Other observations

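Other genes had replicate 1 at the same extreme in CN, LP, CN-R and LP-R as Ppargc1a and Nrip1 did, and are given as values, chosen after they were seen. Replicate 1 lay above the mean of the other rats of its group for the immediate early genes Fos (by 0.41 to 2.35 on the log2 scale), Nr4a2 (0.84 to 2.46), Nr4a1 (0.36 to 0.92), Klf4 (0.58 to 1.30), Zfp36 (0.28 to 1.56) and Myc (0.35 to 0.68), and for the clock gene Per1 (0.25 to 0.42). It lay below the mean of the others for Crem, a factor of cAMP signaling (by -0.48 to -0.22), Pde4d, a cAMP phosphodiesterase (-0.35 to -0.11), Foxo1 (-0.54 to -0.08), the PGC-1α-bound coactivator gene Lpin1 (-0.56 to -0.05) and the glycogen phosphorylase gene Pygm (-0.71 to -0.07). Replicate 4 was lowest in all 4 groups for 85 of the 2073 probe sets (4.1%), more than the 40 (1.93%) of replicate 1, so replicate 1 did not stand apart in this count.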
